A study of Mus musculus with 10 samples.

Results

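Genes that mark macrophages resident in tissue were followed in mouse quadriceps RNA: Mrc1, Cd163, Lyve1, Folr2, F13a1, Cbr2, Csf1r, Cx3cr1, Ms4a7 and Ms4a6d. These 10 were chosen by name from the 24063 gene symbols in the deposited tables, and all were among the 13880 genes that had enough reads to be tested. The libraries came from 5 wild-type C57BL mice whose drinking water carried a supplement named 1C-MIM (1C-MIM group) and from 5 wild-type C57BL mice on the facility's water alone (Control group). All animals were 17 to 20 months old and the supplement ran for 1 to 3 months. Every mouse, Controls included, had received an injury to the tibialis anterior muscle, and the RNA was taken from quadriceps that were not injured. The sources used here do not give the composition of 1C-MIM, the sex or cage of the mice, or the time between injury and collection. Each deposited table is named for an animal of its own, and n is a number of animals.

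Macrophages settle in most tissues and are kept alive there by the receptor Csf1r, which binds the cytokines Csf1 and Il34. In skeletal muscle they lie in the connective tissue between fibres and along vessels, where they clear debris and take up hemoglobin and matrix fragments. Long-lived populations near vessels are commonly marked by Lyve1, Folr2, Cd163 and Mrc1, while cells that have recently come from blood monocytes carry these markers at lower levels. The 10 genes fall into scavenger and uptake receptors (Mrc1, Cd163, Lyve1, Folr2), enzymes (F13a1, Cbr2), receptors for growth factor and chemokine (Csf1r, Cx3cr1) and membrane proteins of the Ms4a family (Ms4a7, Ms4a6d).

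The markers did not move as a block. Ms4a7 and Cx3cr1 fell to 0.295 and 0.292 of their Control level, Ms4a6d, Folr2, Csf1r and Cbr2 fell to between 0.574 and 0.687, and F13a1, Mrc1, Lyve1 and Cd163 did not pass the test. Of the 10 genes, 6 were lower and 0 higher in 1C-MIM (edgeR quasi-likelihood test, p adjusted by Benjamini-Hochberg, threshold 0.05). The count was 3 (Cbr2, Cx3cr1 and Ms4a7) when each library's trend with transcript length was removed, and also 3 without Control 1 and Control 5 together. Among all 13880 tested genes, 11.8% were called lower and 9.78% higher. In 3 markers every 1C-MIM library lay below every Control library, a separation seen in 7.98% of all tested genes, and the opposite one was seen in 0 markers and 6.6% of genes. The median log2 fold change was -0.56 over the 10 markers and 0.00 over all tested genes. In whole-tissue RNA, fewer cells of a type and less RNA per cell cannot be told apart.

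Library totals ran from 28521254 to 31771296 counts after 1 transcript was kept per symbol, and every marker had reads in every library. The tissue was labelled muscle, and 8 skeletal muscle fibre genes together held 187371 to 214012 CPM (counts scaled to 1000000 per library) in 1C-MIM and 169767 to 193084 CPM in Control. Control 1 stood apart in neural RNA: the 8 listed neural genes summed to 3.72 to 4.56 CPM in 1C-MIM, to 4.58 to 5.37 CPM in Control 2 to 5 and to 27.3 CPM in Control 1. Without Control 1, 4 markers were called lower, since Csf1r and Ms4a6d lost their calls.

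The promoter sequences show the kind of start region that these genes have, for the 3 markers whose groups do not overlap and for 2 scavenger receptors that did not pass the test. RefSeq promoter entries (build GRCm38.p6) were at hand for 7 of the 10 markers. Each line gives the 250 bases before the start, 5′ to 3′, with matches to GAGGAA, a core bound by the macrophage factor PU.1, in capitals (TTCCTC where the match is on the other strand).
Ms4a7 (chr19:11336147-11336396, minus strand): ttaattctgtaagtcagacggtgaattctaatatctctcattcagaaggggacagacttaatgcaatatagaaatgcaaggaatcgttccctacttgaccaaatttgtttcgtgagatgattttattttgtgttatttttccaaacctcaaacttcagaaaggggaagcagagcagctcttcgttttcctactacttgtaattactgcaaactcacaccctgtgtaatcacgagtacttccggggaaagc
Cx3cr1 (chr9:120068297-120068546, minus strand): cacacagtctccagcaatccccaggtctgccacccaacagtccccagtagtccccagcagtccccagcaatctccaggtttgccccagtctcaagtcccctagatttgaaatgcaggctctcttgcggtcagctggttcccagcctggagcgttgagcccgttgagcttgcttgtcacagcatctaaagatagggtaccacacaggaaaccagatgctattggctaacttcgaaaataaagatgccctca
Cbr2 (chr11:120732022-120732271, minus strand): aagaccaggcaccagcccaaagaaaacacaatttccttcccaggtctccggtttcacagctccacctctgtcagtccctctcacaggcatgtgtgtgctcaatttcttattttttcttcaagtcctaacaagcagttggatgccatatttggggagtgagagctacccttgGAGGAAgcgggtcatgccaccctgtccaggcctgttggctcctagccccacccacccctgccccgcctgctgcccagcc
Mrc1 (chr2:14229164-14229413, plus strand): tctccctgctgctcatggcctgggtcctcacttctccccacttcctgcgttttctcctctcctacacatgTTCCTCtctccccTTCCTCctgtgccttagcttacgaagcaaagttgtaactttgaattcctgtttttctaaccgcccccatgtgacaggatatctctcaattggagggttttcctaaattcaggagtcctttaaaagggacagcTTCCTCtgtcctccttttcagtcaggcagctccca
Cd163 (chr6:124304401-124304650, plus strand): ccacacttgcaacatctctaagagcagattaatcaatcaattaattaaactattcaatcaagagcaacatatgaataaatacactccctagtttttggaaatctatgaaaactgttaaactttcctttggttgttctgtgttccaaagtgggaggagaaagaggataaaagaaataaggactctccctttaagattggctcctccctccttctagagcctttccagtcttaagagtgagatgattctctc
The word GAGGAA was found on either strand in 3 of the 7 markers, namely Mrc1, F13a1 and Cbr2, against 25.9% of 27025 genes with such an entry. Mrc1 held it 3 times. Ms4a7 has 2 starts in the table, of which the one farther upstream is shown, and neither held the word. TGCTGAC, the core of sites bound by the Maf family, was found in 0 of the 7 markers and in 4.31% of all these genes. A match is a description of the letters only.

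Mrc1, the mannose receptor that takes up glycoproteins, had 11.6, 23.2, 20.5, 19.5 and 19.6 CPM in 1C-MIM 1 to 5 and 21.3, 17.6, 29.1, 21.6 and 20.3 CPM in Control 1 to 5. 1C-MIM 1 lay below all other libraries, and the rest of both groups overlapped. The means were 18.9 ± 4.35 CPM in 1C-MIM and 22.0 ± 4.26 CPM in Control (SD, n = 5 each), with a log2 fold change of -0.22 and a 95% interval of -0.59 to 0.15 (edgeR adjusted p = 0.372).

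Cd163, the receptor that clears hemoglobin bound to haptoglobin, had 16.1, 28.7, 28.2, 25.8 and 25.1 CPM in 1C-MIM 1 to 5 and 20.9, 18.1, 29.8, 22.0 and 17.9 CPM in Control 1 to 5. Here 4 of 5 1C-MIM libraries lay above the Control mean, and the highest library was Control 3. It was the single marker with a positive log2 fold change, 0.19 with a 95% interval of -0.18 to 0.55 (edgeR adjusted p = 0.442). A fall to below 0.883 of the Control level lies outside that interval.

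Lyve1, a receptor for the matrix sugar hyaluronan, had 5.39, 6.73, 7.94, 6.87 and 6.18 CPM in 1C-MIM 1 to 5 and 8.22, 4.79, 8.52, 6.54 and 6.43 CPM in Control 1 to 5. The 1C-MIM values all lay within the Control range. Its log2 fold change was -0.06, with a 95% interval of -0.38 to 0.26 (edgeR adjusted p = 0.798), and its sign changed when single libraries were left out. Lyve1 is also made by lymphatic vessels. Of the 4 tested genes in a list of 6 for lymphatic endothelium, Reln (0.75, SE 0.20) and Flt4 (0.38, SE 0.13) were higher, Pdpn was lower (-0.64, SE 0.17) and Mmrn1 did not pass (edgeR adjusted p = 0.0184, 0.0464, 0.0178 and 0.114). With each library's trend with transcript length removed, the call of Flt4 was lost (adjusted p = 0.117). The 6 genes summed to 14.7 to 25.2 CPM in 1C-MIM and 15.5 to 18.9 CPM in Control, with Ccl21a at 0 reads in all libraries. Their part in the level of Lyve1 was not tested.

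Folr2, the folate receptor beta of macrophages, had 3.94, 6.08, 7.67, 5.97 and 7.84 CPM in 1C-MIM 1 to 5 and 10.3, 7.08, 13.6, 11.2 and 11.3 CPM in Control 1 to 5. Only Control 2 reached into the 1C-MIM range. The log2 fold change of -0.76 (SE 0.19) passed the test (edgeR adjusted p = 0.0156). Without Control 1 and Control 5 together the fold change was -0.75, but the call was lost (adjusted p = 0.0673). Removal of the length trend gave -0.56 (adjusted p = 0.0836). Both folate transporters in the list of partner genes, Slc19a1 (-0.15, SE 0.09) and Slc46a1 (-0.38, SE 0.19), did not pass the test.

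**Figure D1:**
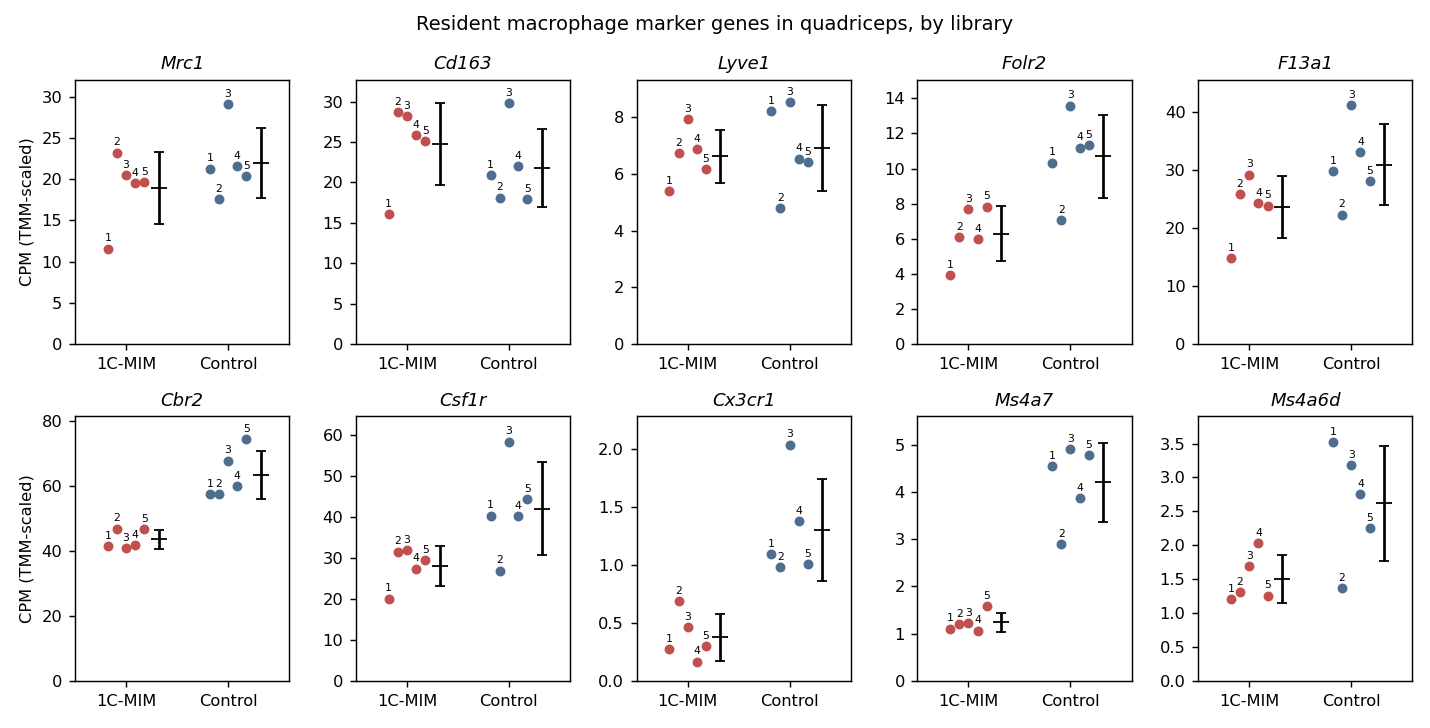
TMM-scaled CPM (y axis from 0) of the 10 markers in each library, 1C-MIM left and Control right, with the replicate number above each point and the mean and SD as a black bar. The groups are apart in Cbr2, Cx3cr1 and Ms4a7 and share their range in Mrc1, Cd163 and Lyve1; Control 2 is the lowest Control in every panel but that of Cd163.

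F13a1 encodes the A chain of coagulation factor XIII, a transglutaminase that crosslinks fibrin. It had 14.8, 25.9, 29.2, 24.4 and 23.9 CPM in 1C-MIM 1 to 5 and 29.8, 22.3, 41.3, 33.2 and 28.1 CPM in Control 1 to 5. All 5 1C-MIM libraries lay below the Control mean, but Control 2 was below 4 of them, and the log2 fold change was -0.39 with a 95% interval of -0.79 to 0.01 (edgeR adjusted p = 0.141). Platelets carry the gene too. Of 8 platelet genes 3 were tested, with Gp1bb lower (-0.60, SE 0.20, edgeR adjusted p = 0.0436) and Gp1ba and Itga2b not past the test, while Ppbp had 45, Gp9 21 and Gp6 1 reads over all libraries. The call of Gp1bb was lost with the length trend removed (adjusted p = 0.0781). The 8 platelet genes summed to 6.08 to 7.32 CPM in 1C-MIM and 6.23 to 7.17 CPM in Control, and their part in the level of F13a1 was not tested.

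Cbr2, a carbonyl reductase, had the highest level per kilobase of the markers, with 41.6, 47.0, 41.0, 41.9 and 46.8 CPM in 1C-MIM 1 to 5 and 57.7, 57.5, 67.9, 60.0 and 74.5 CPM in Control 1 to 5. Every 1C-MIM library lay below every Control library, and the spread within the groups was the smallest among the markers, with coefficients of variation of 6.85% in 1C-MIM and 11.8% in Control. Cbr2 fell by 0.54 on the log2 scale (SE 0.08, edgeR adjusted p = 0.000968). With the length trend removed its change was smaller, at -0.34 (SE 0.07, adjusted p = 0.00649); its transcript, at 1021 bases, is the shortest of the 10.

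Csf1r, the receptor tyrosine kinase on which macrophage survival rests, had 20.1, 31.6, 31.9, 27.4 and 29.4 CPM in 1C-MIM 1 to 5 and 40.4, 27.0, 58.5, 40.3 and 44.5 CPM in Control 1 to 5. Control 3 was far above and Control 2 within the 1C-MIM range. Its log2 fold change of -0.58 (SE 0.18) passed narrowly (edgeR adjusted p = 0.0404). The call was lost in 9 of the 10 fits that left out a single library, all but the one without Control 2 (adjusted p = 0.0545 to 0.105 in those 9), while the fold change stayed between -0.71 and -0.44. It was also lost with the length trend removed (adjusted p = 0.0503), with no filter on low counts (0.0791), without Control 1 and Control 5 together (0.157) and in the fit blocked on the animal-number series (0.0549).

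Cx3cr1, the receptor for the chemokine Cx3cl1, had the lowest level per kilobase, with 8, 20, 14, 5 and 9 reads in 1C-MIM 1 to 5 and 32, 30, 66, 43 and 30 reads in Control 1 to 5. The groups did not overlap, and the means were 0.379 ± 0.203 CPM in 1C-MIM and 1.30 ± 0.442 CPM in Control (SD, n = 5 each). It fell by 1.78 on the log2 scale (SE 0.33, edgeR adjusted p = 0.00327), with a 95% interval of -2.48 to -1.08 and few reads behind it. Blood monocytes and brain microglia carry Cx3cr1 as well. Of 12 tested monocyte genes 6 were lower and 0 higher, with sums over the 14 listed genes of 15.8 to 21.1 CPM in 1C-MIM and 26.5 to 39.4 CPM in Control. Among 5 tested microglia genes, Tmem119 was lower (-0.71, SE 0.15, edgeR adjusted p = 0.0065) and 4 did not pass; the 7 listed genes summed to 9.33 to 14.9 CPM in 1C-MIM and 12.7 to 17.0 CPM in Control, with Sall1 at 12 and Sall3 at 3 reads in all. Without Control 1, the library with neural RNA, Cx3cr1 was at -1.83 (adjusted p = 0.00463). The part of monocytes in its fall was not tested.

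Ms4a7, a protein of macrophages that spans the membrane several times, had 1.11, 1.20, 1.23, 1.07 and 1.59 CPM in 1C-MIM 1 to 5 and 4.55, 2.90, 4.91, 3.88 and 4.78 CPM in Control 1 to 5. The groups were far apart, with all 1C-MIM libraries close to each other. Ms4a7 had the smallest p of the 10 markers and fell by 1.76 on the log2 scale (SE 0.17, edgeR adjusted p = 6.24e-05). Its relative Ms4a6d had 1.21, 1.31, 1.69, 2.03 and 1.26 CPM in 1C-MIM 1 to 5 and 3.53, 1.37, 3.18, 2.76 and 2.26 CPM in Control 1 to 5, where Control 2 lay within the 1C-MIM range. Ms4a6d fell by 0.80 (SE 0.24, edgeR adjusted p = 0.029), a call that was lost in 6 of the 10 fits without a single library (adjusted p = 0.0521 to 0.0654). It was lost as well with the length trend removed (adjusted p = 0.0847), in limma-voom (0.0514) and without Control 1 and Control 5 together (0.09).

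Most other Ms4a family genes had few reads in the tissue. Of 15 listed, 13 were in the tables and 6 had enough reads for the test; 4 of these were lower and 0 higher, with a median log2 fold change of -0.87. Ms4a6c, a close paralog of Ms4a6d, fell to 1.56 ± 0.328 CPM in 1C-MIM, against 3.84 ± 1.10 CPM in Control, a log2 fold change of -1.30 with SE 0.21 (edgeR adjusted p = 0.00181). Ms4a4c fell too (-2.30, SE 0.37), on 94 reads over all libraries, as did Ms4a4b (-1.11, SE 0.31) on 88 reads. Ms4a4d, the highest of the 6, had 5.06 ± 0.590 CPM in 1C-MIM and 5.53 ± 0.554 CPM in Control. It did not pass the test (-0.13, SE 0.11, edgeR adjusted p = 0.411). With the length trend removed 2 of the 6 were lower. The sources used here do not say whether the counting split reads between the Ms4a6 paralogs, so their values are uncertain to that extent. The B-cell gene Ms4a1 and the mast cell gene Ms4a2 had too few reads to be tested.

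Per kilobase of transcript, the order of levels was similar at the top and differed at the bottom. In 1C-MIM, Cbr2 led at 42.7 ± 2.93 CPM per kilobase, followed by Csf1r at 7.25 ± 1.24, F13a1 at 6.10 ± 1.38, Folr2 at 5.83 ± 1.46 and Cd163 at 5.51 ± 1.14 (SD, n = 5). In Control, Cbr2 stood at 62.2 ± 7.32 CPM per kilobase, Csf1r at 10.9 ± 2.91, Folr2 at 9.90 ± 2.18, F13a1 at 7.98 ± 1.80 and Cd163 at 4.84 ± 1.08. Cbr2 did not overlap with Csf1r in either group, whereas the ranges of each neighbouring pair from Csf1r down to Cd163 overlapped. Ms4a7 ranked 9 of 10 in 1C-MIM at 0.968 ± 0.161 CPM per kilobase, below Lyve1 at 2.54 ± 0.360, and ranked 7 in Control at 3.29 ± 0.649, above Lyve1 at 2.65 ± 0.580. In Control the ranges of Ms4a7 and Lyve1 overlapped. Cx3cr1 was last in both groups, at 0.101 ± 0.0540 CPM per kilobase in 1C-MIM and 0.346 ± 0.118 in Control, with no overlap with the gene above it.

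The markers were then set against macrophage genes in general. All 15 genes of that list, which holds none of the 10 markers, were lower in 1C-MIM, with a median log2 fold change of -1.14; among them Ctss, a lysosomal protease, fell by 1.74 (SE 0.13), the pore-forming protein gene Mpeg1 by 1.45 (SE 0.14) and the lysosomal membrane protein gene Cd68 by 1.34 (SE 0.14). The part of other cells, such as monocytes, in the levels of these genes was not tested. The mean log2 CPM over the list was 2.16 to 2.56 in 1C-MIM and 3.04 to 3.88 in Control. Each library was rescaled to this mean and all genes were refitted, so that a log2 fold change of 0 stands for a fall as large as that of the list. On that scale 94.7% of all tested genes were higher and 0.303% lower, so nothing is read from the count of markers called higher, 6 of 10. The median over all tested genes was 1.08. With so many genes called, the Benjamini-Hochberg step hardly changes a p-value on this scale. Its adjusted p are therefore close to unadjusted ones, for markers called lower as well as higher.

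Cd163 was above the list by 1.27 (SE 0.20, edgeR adjusted p = 5.16e-10), Lyve1 by 1.05 (SE 0.20, adjusted p = 3.7e-07) and Mrc1 by 0.87 (SE 0.19, adjusted p = 1.13e-05), values near the median of all genes. Their log2 difference from the list mean did not overlap between the groups. For Lyve1 it was 0.09 to 0.44 in 1C-MIM and -0.89 to -0.47 in Control, and for Cd163 it was 1.85 to 2.36 in 1C-MIM and 0.58 to 1.14 in Control. The list mean was itself apart between the groups. The share of all genes separated in this way was not counted, so nothing is read from the separation. F13a1 (0.71, SE 0.19), Cbr2 (0.54, SE 0.19) and Csf1r (0.53, SE 0.19) also lay above the list, with edgeR adjusted p of 0.000299, 0.00543 and 0.00627. They were below the median of all tested genes on this scale, 1.08.

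Folr2 (0.33, SE 0.20) and Ms4a6d (0.32, SE 0.24) did not differ from the list past the threshold (edgeR adjusted p = 0.0952 and 0.176). Ms4a7 fell further than the list, by 0.66 (SE 0.23, edgeR adjusted p = 0.00506), with a log2 difference from the list mean of -2.22 to -1.82 in 1C-MIM and -1.60 to -1.31 in Control. Cx3cr1 was at -0.67 (SE 0.31, edgeR adjusted p = 0.0335), with overlapping groups and a call that was lost without any 1 of 1C-MIM 1, 4 and 5 or of Control 3 and 4 (adjusted p of up to 0.157). With the length trend removed as well, an alternative chosen after seeing the data, Cd163 stood at 1.12, Lyve1 at 1.00, Mrc1 at 0.67 and Ms4a7 at -0.56, each past the threshold, and Folr2 was then past it too (0.45, edgeR adjusted p = 0.0214).

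**Figure D2:**
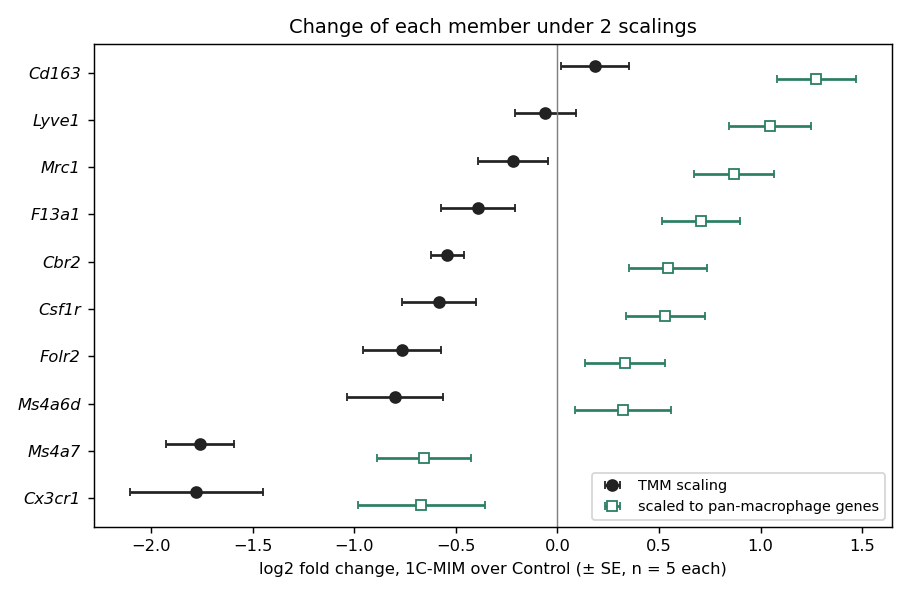
Log2 fold change of each marker (x axis, 1C-MIM over Control, with SE, 5 libraries per group) with TMM scaling (black circles) and with libraries rescaled to the 15 macrophage genes in general (green squares). Cd163 is at 0.19 and 1.27 under these scalings, and Ms4a7 at -1.76 and -0.66, so the markers keep their spread while the zero line moves.

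**Figure D3:**
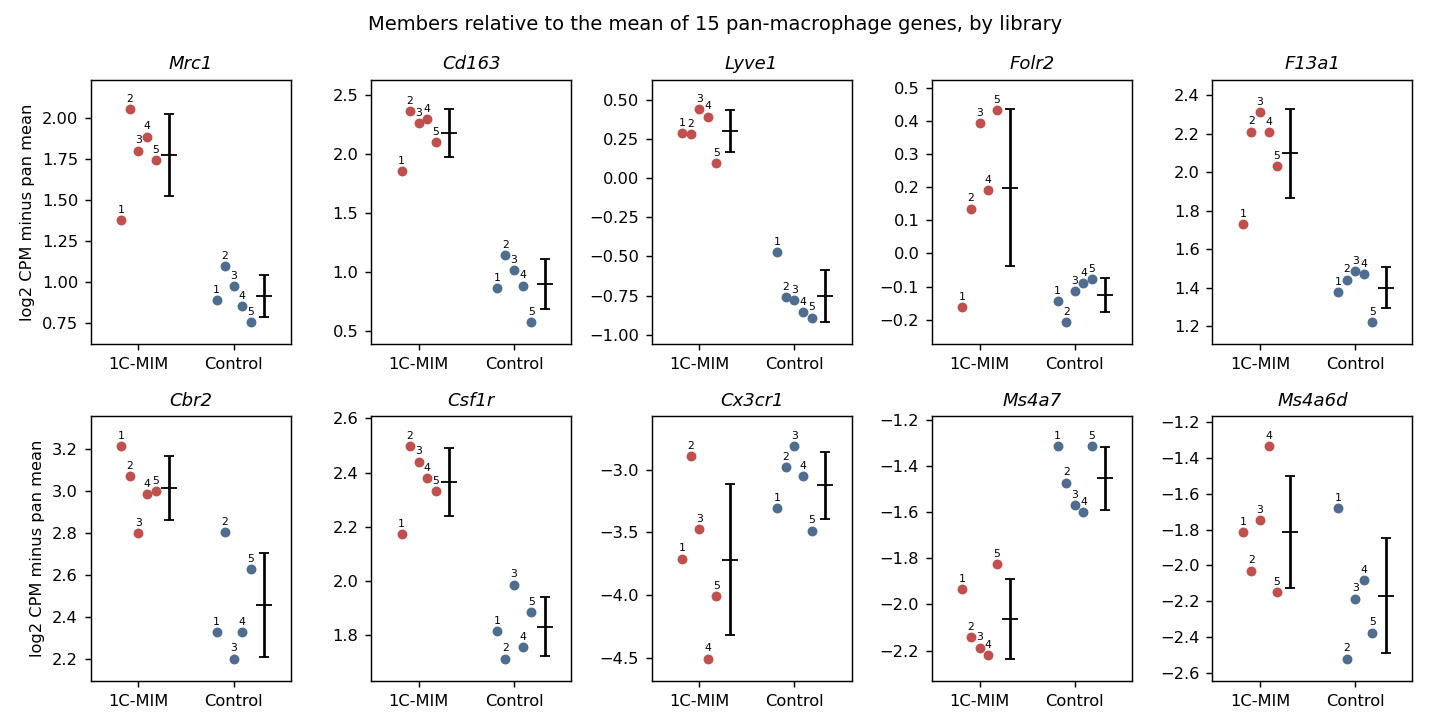
Log2 CPM of each marker minus the mean log2 CPM of the 15 macrophage genes in the same library (y axis, own range in each panel), 1C-MIM left and Control right, with replicate numbers, mean and SD. The groups are apart and 1C-MIM is higher in Mrc1, Cd163, Lyve1, F13a1 and Csf1r, and apart with 1C-MIM lower in Ms4a7. In the fit on this scale 94.7% of all tested genes were called higher. The share of all genes whose groups are apart was not counted.

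Further genes of resident macrophages were mixed as well. Of 22 listed, 21 were tested, with 7 lower, 0 higher and 14 not past the test, and a median log2 fold change of -0.36. Wfdc17 fell to 1.70 ± 0.228 CPM in 1C-MIM, against 4.44 ± 0.833 CPM in Control, a log2 fold change of -1.39 with SE 0.16 (edgeR adjusted p = 0.000156). The chemokine gene Pf4 (-0.73, SE 0.13, adjusted p = 0.00311) and the Fc receptor-like gene Fcrls (-0.80, SE 0.18, adjusted p = 0.00921) were lower as well. The highest CPM values in the list were those of Sepp1 and Gas6, and the part of other cell types in these values was not tested. Sepp1 averaged 176.5 ± 10.3 CPM in 1C-MIM and 187.3 ± 17.9 CPM in Control, and Gas6, a bridging ligand for the uptake of dying cells, 131.0 ± 12.7 CPM in 1C-MIM and 134.8 ± 8.85 CPM in Control (SD, n = 5 each), and neither passed the test.

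Monocyte genes that were lower included Plac8 (-1.82, SE 0.19), S100a4 (-1.40, SE 0.18) and Ccr2 (-0.84, SE 0.17), the receptor by which monocytes leave the bone marrow (edgeR adjusted p = 0.000106, 0.000534 and 0.00496). Their list had a median log2 fold change of -0.84. Of 8 tested dendritic cell genes 2 were lower, Itgax (-1.87, SE 0.20) and Batf3 (-1.31, SE 0.27), and 0 higher. This list did not fall as a whole: its median log2 fold change was 0.11, and 4 of the 8 had a negative value. It summed to 8.57 to 12.2 CPM in 1C-MIM and 10.7 to 12.9 CPM in Control.

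Genes of other cell types moved between the groups too. Of 9 blood endothelial genes 4 were higher and 0 lower, among them Cdh5 (0.37, SE 0.09), Tek (0.38, SE 0.12) and Emcn (0.24, SE 0.08), with edgeR adjusted p of 0.0123, 0.0337 and 0.0409. The list summed to 300.1 to 339.1 CPM in 1C-MIM and 220.0 to 304.1 CPM in Control. Of 8 muscle fibre genes 3 were higher and 0 lower, against 9.78% higher among all tested genes. The 3 were Actn3 (0.45, SE 0.08), Myh4 (0.32, SE 0.07) and Ttn (0.84, SE 0.22), with edgeR adjusted p of 0.00339, 0.00719 and 0.0229. The median log2 fold change of the 8 was 0.05, and 3 of them had a negative value. With the length trend removed Myh4 was not called and Ttn was at -0.07. Of 7 genes of fibro-adipogenic progenitors, which are stromal cells, 3 were lower and 0 higher, namely Lum (-0.46, SE 0.09), Ly6a (-0.40, SE 0.10) and Dpt (-0.32, SE 0.09), with edgeR adjusted p of 0.00518, 0.0127 and 0.0195. With the length trend removed 2 blood endothelial genes were higher and 2 fibro-adipogenic genes lower. The part of these cell types in the falls of the markers was not tested.

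**Figure D4:**
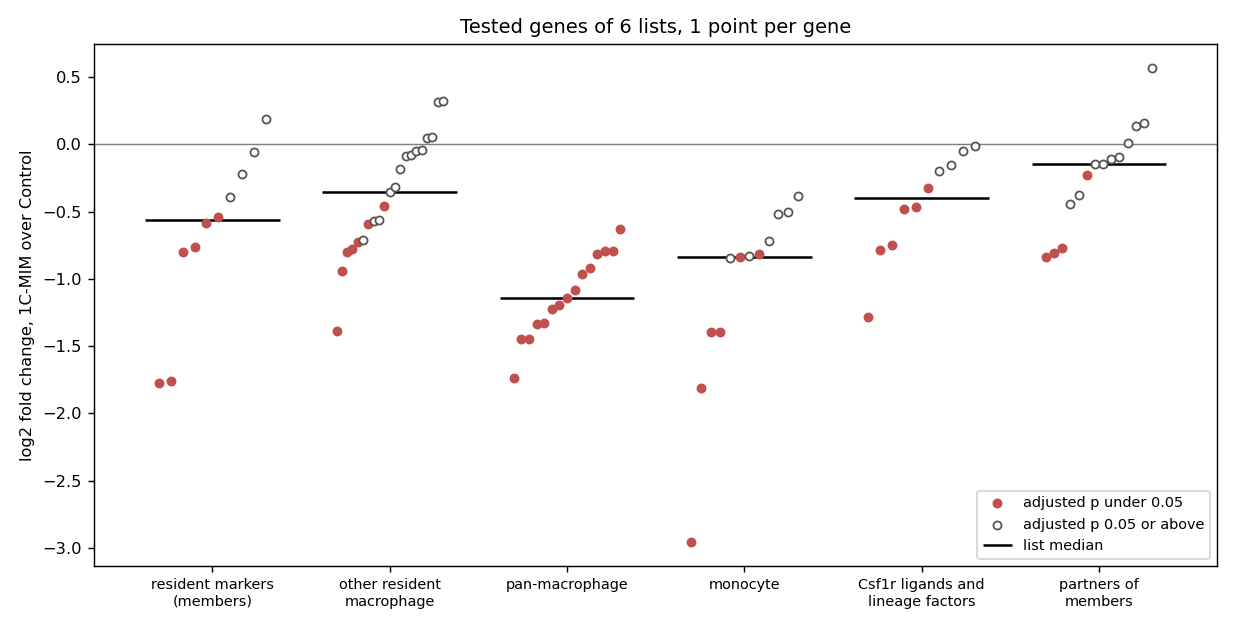
Log2 fold change (y axis, 1C-MIM over Control) of every tested gene in 6 lists, 1 point per gene, filled where the edgeR adjusted p was under 0.05, with the list median as a bar. The 15 macrophage genes in general are all filled, with a median of -1.14, while the 10 resident markers and the 21 other resident genes reach from strong falls to values around 0.

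Among the ligands and lineage factors around Csf1r, 6 of 10 genes were lower and 0 higher, with a median log2 fold change of -0.40. Csf1, the main ligand, fell to 15.2 ± 1.62 CPM in 1C-MIM, against 19.0 ± 1.28 CPM in Control, without overlap (-0.33, SE 0.08, edgeR adjusted p = 0.0131). The second ligand Il34 was at -0.01 (SE 0.10, adjusted p = 0.955). Among the lineage factors, Spi1, which encodes PU.1, fell by 0.79 (SE 0.20), Ikzf1 by 0.75 (SE 0.18), Irf8 by 0.48 (SE 0.09) and Runx1 by 0.47 (SE 0.10), with edgeR adjusted p of 0.0141, 0.012, 0.00301 and 0.00747. Maf (-0.05, SE 0.09), Cebpa (-0.20, SE 0.12) and Nr1h3 (-0.15, SE 0.07) did not pass the test.

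Of 14 tested genes that encode ligands, partners or downstream enzymes of the markers, 4 were lower, 0 higher and 10 not called, with a median log2 fold change of -0.15; over all tested genes 11.8% were lower. The 4 were Hmox1, the heme-degrading enzyme that follows Cd163 uptake (-0.84, SE 0.10, edgeR adjusted p = 0.000163), Hp, which encodes haptoglobin (-0.81, SE 0.20, adjusted p = 0.017), the hyaluronan receptor gene Cd44 (-0.77, SE 0.13, adjusted p = 0.00245) and the transglutaminase gene Tgm2 (-0.23, SE 0.06, adjusted p = 0.0158). With the length trend removed the call of Hp was lost (adjusted p = 0.0504) and 3 genes were called. Cx3cl1, the ligand of Cx3cr1, was at 0.01 (SE 0.10, adjusted p = 0.942), with 3.34 ± 0.229 CPM in 1C-MIM and 3.31 ± 0.294 CPM in Control. The hyaluronan synthase genes Has2 (-0.45, SE 0.31) and Has3 (0.57, SE 0.24) did not pass, and Has1 had too few reads to be tested.

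Within groups the markers varied together. Control 3 was above its group mean for 10 of the 10 markers, on the log2 scale, and Control 2 and 1C-MIM 1 were above theirs for 0. Over the 10 libraries with group means taken off, Pearson's r was positive in 44 of the 45 pairs of markers, with a median of 0.60, from -0.05 (Cbr2 with Ms4a6d) to 0.97 (Mrc1 with Cd163). Libraries share depth and tissue sampling, so these values are descriptions. The same values were not computed for other genes, so the shared variation is not read as particular to the markers. The 6 genes outside the markers whose profile was most like the mean of the 10 were Clec4a3 (r = 0.97), Gas7 (0.97), Trim30d (0.96), Parvb (0.95), Cd84 (0.94) and Ckap4 (0.94). Of these, Clec4a3 (-1.32, SE 0.31), Parvb (-0.26, SE 0.06), Cd84 (-1.11, SE 0.16) and Ckap4 (-0.82, SE 0.11) were lower in 1C-MIM, and Gas7 and Trim30d did not pass the test (edgeR adjusted p = 0.0533 and 0.841).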

How the data were processed

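Total RNA of quadriceps from 10 mice was sequenced, and per the labels' protocols a company, Active Motif, extracted the RNA and made the libraries. The deposited count per RefSeq transcript is a whole number that the authors did not normalize, and reads shared by isoforms are counted for each. The deposited FPKM, scaled by the authors per kilobase and library total, served to recover transcript lengths; the deposited TPM was not used. The submitters' processing notes list, with no role or order, STAR, Salmon 1.5.2, Subread 2.0.1 with featureCounts, Trim Galore 0.6.7 and the build GRCm39. The sources used here do not give filters or strandedness.

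For each symbol the transcript with the highest summed count was kept, which left out 45.3 to 47.4% of a library's transcript counts. The transcripts of Cd163, F13a1 and Ms4a7 had nearly the same counts, so the choice barely matters for them. Genes were filtered with filterByExpr, scaled by TMM and compared with edgeR 4.0.16 (R 4.3.3), quasi-likelihood F test with robust dispersion, Benjamini-Hochberg over 13880 genes, threshold 0.05. CPM values are TMM-scaled, and log2 values use a prior count of 2. Intervals come from the t distribution of that fit. For the comparison with macrophage genes in general, each library was scaled by its geometric mean CPM over 15 such genes. Alternatives were other scalings, filters, DESeq2 1.42.0, limma-voom (limma 3.58.1), the replicate number or the animal-number series as a block, summed transcripts, removal of the length trend, an adjusted p under 0.1, and libraries left out. The animal-number series is the leading digit of the animal number in the deposited tables' names, whose meaning the sources used here do not give. Control 1 and Control 5 were left out together because both had stood apart in earlier results of these data. Genes named beyond the 10 markers follow a rule: any tested gene of the Csf1r and partner lists, the 3 with the smallest p of the other lists and any defining gene at 0, and the 6 most like the markers' mean within groups among genes with a mean log2 CPM of at least 0. Platelet, microglia and lymphatic genes with few reads, Mmrn1, Sepp1, Gas6, Ms4a1, Ms4a2 and Ms4a4d were named outside it, after their values were seen. The markers, lists and rule were chosen with earlier results of these data known. The values of 1 listed gene are not reported here. The tests set the difference between groups against the spread between animals, which are taken as independent. Cages held up to 5 mice, and which mice shared a cage is not given. An effect of cage therefore cannot be told apart from that of the supplement. Precision is limited by low counts in Cx3cr1 and the Ms4a genes.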

Additional observations from a re-analysis of the deposited data

Results flagged for a closer look

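In 1C-MIM 1, Cd163 had 16.1 CPM, and the gap to the next 1C-MIM library was 0.714 of the whole range of its group, just past the value (0.71) at which Dixon's test sets a sample of 5 apart at the 95% level. Chance sets about 1 in 20 groups apart, and 20 groups were looked at. The same library was below its group mean for all 10 markers. Without it Cd163 had a log2 fold change of 0.31 (edgeR adjusted p = 0.0999).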

How the results depend on the processing

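Ms4a7 and Cbr2 stayed lower in all 23 alternatives and Cx3cr1 in all 22 in which it was tested; Mrc1, Cd163, Lyve1 and F13a1 passed in 0 of 23. Folr2 was called in 21, Ms4a6d in 14 and Csf1r in 9. Lyve1 changed sign without 1C-MIM 1 (0.01), Control 1 (0.01) or Control 3 (0.029), with values of -0.17 to 0.029 over the fits without a single library. The count of markers called lower was 4 to 6 without a single library, 3 with the length trend removed and 3 without Control 1 and Control 5 together; the cause was not tested. Over all genes, 739 to 1558 were higher and 941 to 1885 lower without a single library (739 and 941 without 1C-MIM 4, 843 and 1057 without 1C-MIM 3, and 902 higher without Control 4), and 832 and 976 without Control 1 and Control 5 together. Scaling by library totals alone gave 606 higher and 2896 lower and moved the median of all genes to -0.07; 2114 were higher at an adjusted p under 0.1. Relative to macrophage genes in general, 6 to 7 markers were higher and 1 to 2 lower without a single library, 1 lower with the list summed in place of its geometric mean, and 133 genes lower with no filter. Same-numbered libraries of the groups had correlations of -0.08 to 0.39 in their deviations, so the numbers were not taken to pair them; with replicate number as a block 1932 genes were higher and 1965 lower, and 5 markers lower, since Csf1r had an adjusted p of 0.0534. In the fit relative to macrophage genes the block left 6 markers higher and 2 lower. The filter of 1 CPM in 5 libraries removed Cx3cr1.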
